A study of Drosophila melanogaster with 25 samples.

Results

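The proteasome is the protease that degrades most ubiquitin-tagged proteins of the cell, and its subunit genes were followed here through RNA sequencing of Drosophila wing imaginal discs of 6 genotypes. Members were taken by their FlyBase symbols: those that begin with Prosalpha or Prosbeta, and those that begin with Rpn or Rpt followed by a digit. The rule gave 48 of the 13955 genes measured, of which 32 are the canonical subunits and 16 are paralogues, whose symbols carry a T or an R after the subunit number. The canonical genes comprise 7 alpha and 7 beta subunits of the core particle, and 6 ATPases, 4 other subunits of the base and 8 subunits of the lid, which together form the regulatory particle. The gene of the small lid subunit Sem1 has another kind of symbol and was not a member.

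The study compared discs that behave as winners or losers when they grow beside other cells. WT was made up of 6 yw libraries (WT1 to WT4, WT7 and WT8) and 2 libraries of FRT82, ubi-GFP flies (WT5 and WT6). RpS3 discs were heterozygous for the Plac92 allele of the gene of ribosomal protein S3, on a chromosome with FRT82B and ubi-GFP (2 libraries). RpS3* discs were heterozygous for the other allele of this gene, with FRT82B (2 libraries). RpS15 discs were heterozygous for M(2)53[1], a mutation of a second ribosomal protein gene, and carried FRT42D (2 libraries). In mahj discs both copies of chromosome arm 2R carried FRT42D and the mahj mutation, in larvae with hs-FLP and 1 copy of stauGFP (2 libraries). The gene mahj encodes a subunit of a cullin ubiquitin ligase. RpS3+puc discs had the RpS3 chromosome together with esg-Gal4, UAS-GFP and UAS-Puc, so that puc, a phosphatase that inhibits Jun kinase signalling, was expressed where the esg driver is active (3 libraries). The RpS3 libraries had neither the driver nor UAS-GFP, so an effect of puc and one of the driver line cannot be told apart. Each sample pooled 50 whole discs from wandering third-instar larvae raised at 25°C, and FRT sites were present in all groups except the yw WT libraries. The authors pooled 2 sequencing runs for WT2, RpS15 and mahj, and the other libraries except WT1 had 1 run each. WT1 was also sequenced in 2 runs, but its values are headed as run 1 alone. It was counted as a library of 2 runs throughout.

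The core particle is a barrel of 4 stacked rings, with alpha rings at both ends that gate the entry and beta rings inside that hold the active sites. The regulatory particle sits on the end of the barrel, where its receptors bind ubiquitin chains, a deubiquitinase of the lid removes them, and a ring of ATPases unfolds the substrate and threads it into the core. Every subunit is needed in a fixed number per particle, and in animals the genes are induced together when proteasome activity falls short, by a transcription factor that in Drosophila is encoded by cnc. Several subunits have a second gene in Drosophila that is used mainly in the testis.

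Values are FPKM, that is fragments scaled to transcript length and library depth, so levels of different genes are given per length. Differences between groups still moved with transcript length, as given below, which limits such comparisons. The steps between low values implied 12100000 to 17000000 reads per library (median 15900000). In the 17 canonical genes with a single annotated transcript, 1844 to 6581 reads stood behind each value, and counting error was at most 2.33%, below the spread between WT libraries of the steadiest gene (4.18%). The reads behind the other 15 canonical genes were not derived. Other genes overlap at most 13% of the exonic bases of a canonical member (Rpt6). The wing disc genes vg, nub, sd, en and ci were each at 33.6 FPKM or more in every library. Fat body genes, which whole discs should lack, summed to between 4.85 and 640 FPKM in 18 libraries and to 1446 FPKM in mahj1. Of 9 testis genes, 7 were below 1 FPKM in every library, and the others were mia and betaTub85D.

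In WT discs all 32 canonical genes were strongly expressed, with means between 111 and 278 FPKM, a span of 2.51 times, and 94.6% of all genes were below the lowest of them. Alpha ring genes had the highest levels, with a median of the WT means of 249 FPKM, followed by the beta ring with 225 FPKM. The lid had a median of 166 FPKM, the ATPases 162 FPKM and the other base subunits 114 FPKM.

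In the alpha ring the WT means ran from 230 ± 32.2 FPKM (SD, n = 8) for Prosalpha7 to 278 ± 33.1 FPKM for Prosalpha2. The beta ring was the most even, from 215 ± 24.4 FPKM for Prosbeta6 to 240 ± 21.1 FPKM for Prosbeta4, which is a ratio of 1.11. Within the spread of the WT libraries most genes of a ring could not be put in order. Among the ATPases, Rpt2 had the highest mean (199 ± 19.8 FPKM) and Rpt4 the lowest (139 ± 18.6 FPKM). Of the base, the ubiquitin receptor Rpn10 was at 148 ± 12.2 FPKM, and the large scaffold subunit Rpn1 at 111 ± 11.1 FPKM was the lowest canonical gene. The lid ranged from 119 ± 13.4 FPKM for Rpn3 to 192 ± 11.3 FPKM for Rpn9, both scaffold subunits.

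**Figure D1:**
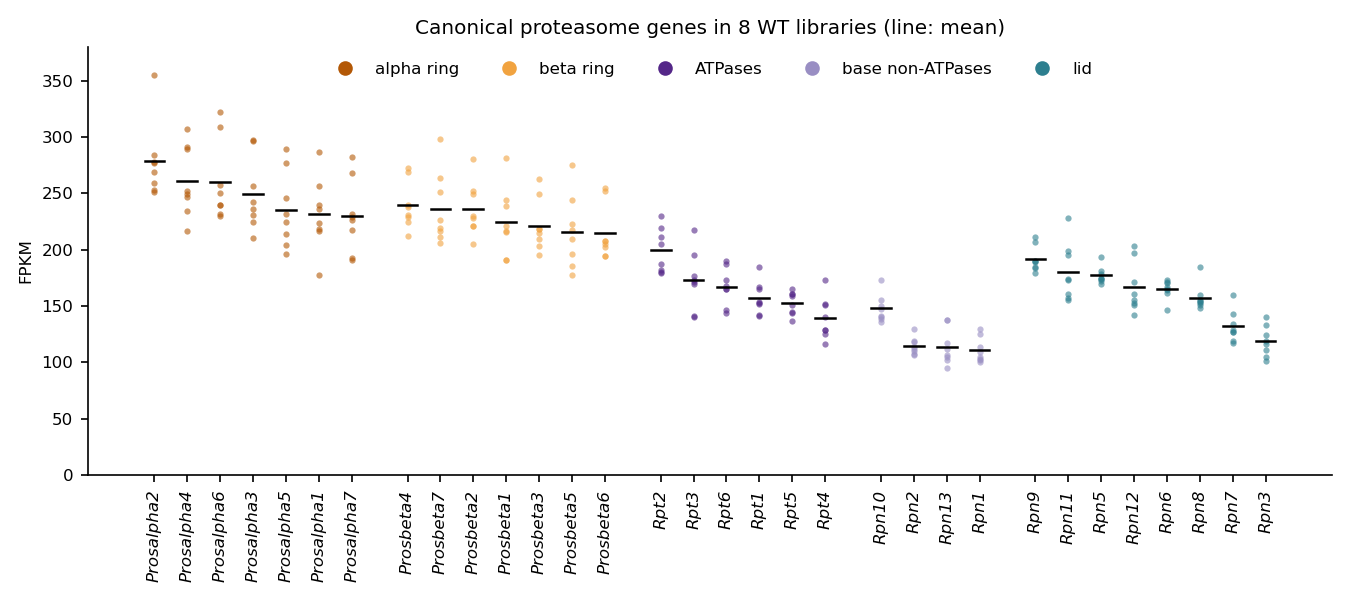
FPKM (y axis) of the 32 canonical proteasome genes (x axis, by sub-group and falling mean) in the 8 WT libraries; each point is a library and each line a mean. Alpha and beta ring genes sit between means of 215 and 278 FPKM, above all genes of the regulatory particle, whose means run from 111 to 199 FPKM.

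The 3 beta subunits with active sites had similar levels. Prosbeta1, the caspase-like subunit, was at 191 FPKM in the lowest WT library, 219 FPKM at the median and 282 FPKM in the highest. For the trypsin-like subunit Prosbeta2 these values were 205, 229 and 281 FPKM. The chymotrypsin-like subunit Prosbeta5 had 177, 213 and 275 FPKM. The WT ranges of all 3 overlap over most of their width.

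The canonical genes varied between WT libraries as much as other genes of like abundance: the median coefficient of variation was 11.3% over the 32 genes and 11.3% over 1727 genes with WT means of 50 to 500 FPKM. Rpn5 was the steadiest (4.18%) and Prosbeta5 the least steady (14.9%). Much of this variation was shared, because WT6 and WT7 stood at the upper end in most core genes. The median over the 14 core genes was 272 FPKM in WT6 and 281 FPKM in WT7, and 208 to 235 FPKM in the other 6 WT libraries. WT6 is of the FRT82, ubi-GFP strain and WT7 of yw, and both had 1 run.

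These WT libraries gave 2 comparisons without a mutation. Between FRT82, ubi-GFP and yw WT, 0 of 34 members tested passed the threshold in limma (1 at an unadjusted p under 0.05), beside 0.815% of 7975 genes, and the median log2 difference of the members was 0.08. Between yw WT libraries with 2 runs and with 1 run, 0 of 34 passed (6 at an unadjusted p under 0.05), beside 0.241% of 7868 genes. The libraries with 2 runs were WT1 and WT2, and whether the values of WT1 hold both runs is uncertain. The median here was −0.16, against −0.05 for all genes tested, and 31 of 34 members were lower in the libraries with 2 runs. RpS15 and mahj were sequenced in 2 runs and the other mutants in 1, so comparisons with WT libraries of the same number of runs are given beside the main ones.

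Core genes stood above regulatory genes in nearly every library. Of the 252 pairs of a core and a regulatory gene, the core gene was higher in all 252 pairs in 12 libraries, which included all RpS3, RpS3* and RpS3+puc libraries, and in 247 to 251 pairs in WT1, WT4 and WT8. The count was 235 and 239 in RpS15 and 235 and 233 in mahj. Prosalpha1 was the lowest core gene in mahj (98.0 and 102 FPKM), and 16 and 17 regulatory genes stood above it there. The mean log2 level of the core exceeded that of the regulatory particle by 0.55 to 0.77 in WT. In RpS15 this gap was 0.40 and 0.43 and in mahj 0.51 and 0.50, below every WT library, while RpS3 (0.74 and 0.74) and RpS3* (0.69 and 0.77) lay within the WT range. RpS3+puc had the widest gap, 0.94, 0.81 and 0.80, above every WT library. These gaps were not tested, since they are scores over the members. Core genes also have shorter transcripts than most regulatory genes, and differences between groups moved with transcript length, as given below. The gap in mahj includes Prosalpha1 and was not derived without it.

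Summed over the 32 canonical genes, 0.874% to 1.05% of all FPKM fell on the proteasome in WT. RpS3 libraries had shares of 1.07% and 1.06%, RpS3* libraries 1.09% and 1.02%, and the 3 of RpS3+puc 1.04% to 1.10%. RpS15 had 0.962% and 0.969%, and mahj 0.749% and 0.806%. Both mahj libraries lay below all WT libraries and both RpS3 libraries above them, while RpS15 lay within the WT range.

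**Figure D2:**
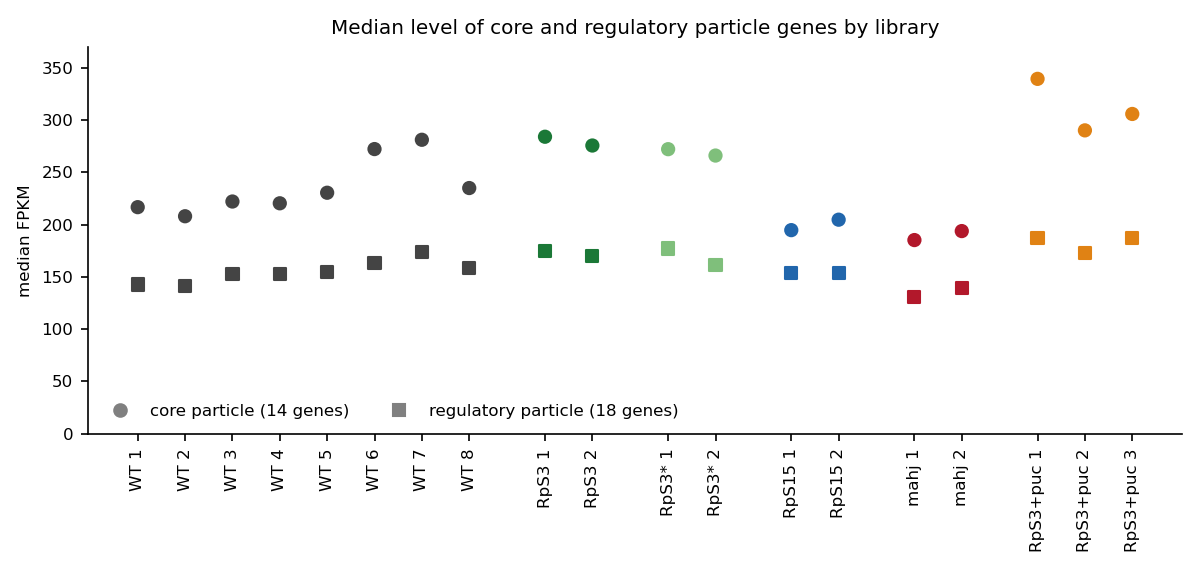
Median FPKM (y axis) over the 14 core genes (circles) and the 18 regulatory genes (squares) in each of the 19 libraries (x axis), coloured by genotype. Core medians are 185 and 194 FPKM in mahj, 195 and 205 FPKM in RpS15, 208 to 281 FPKM in WT and 290 to 340 FPKM in RpS3+puc; regulatory medians run from 130 to 187 FPKM.

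In RpS3 discs 33 of the 34 members tested had a higher estimate than in WT, but 0 passed the threshold (limma, adjusted p under 0.1; 6 at an unadjusted p under 0.05), beside 18.6% of the 8053 genes tested. The median log2 difference was 0.21 over the members and 0.09 over all genes. For Prosbeta1 the RpS3 libraries had 275 and 271 FPKM, inside the WT range (log2 difference 0.29, SE 0.13, adjusted p = 0.16 in limma). Prosbeta2 had 265 and 258 FPKM (0.15, SE 0.11) and Prosbeta5 250 and 259 FPKM (0.25, SE 0.14), also inside it. The lower estimate was that of Rpt1, an ATPase, with 139 and 136 FPKM, both below the lowest WT library at 142 FPKM (log2 difference −0.19, SE 0.10, adjusted p = 0.24 in limma). Rpt1 was chosen after its values were seen.

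The outcome for RpS3 turned on WT6 and WT7, the WT libraries with the highest core levels. Without WT7, 11 of 34 members passed, all higher, beside 31.4% of all genes called in that fit, and without WT6 5 did, beside 25.5%. Without both, a choice made after the values were seen, 23 of 34 members passed, all higher, and 43.5% of all genes were called in either direction. Against the 6 WT libraries with 1 run, as RpS3 had, 0 passed, beside 12.6% of all genes, and the median was 0.16.

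RpS3* discs gave the same picture with 1 call, which is 2.94% of the 34 members beside 22.8% of 8067 genes. Prosbeta6, a beta subunit without an active site, had 282 and 290 FPKM in RpS3*, above the highest WT library at 255 FPKM (log2 difference 0.42, SE 0.12, adjusted p = 0.032 in limma). Its level in RpS3 was 240 and 236 FPKM, within the WT range. The difference between both alleles in Prosbeta6 was 0.26 (SE 0.13, adjusted p = 0.76 in limma) and did not pass. The call on Prosbeta6 was lost without either RpS3* library, where adjusted p was 0.18 and 0.29.

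Over all 34 members tested in RpS3*, Prosbeta6 included, the median log2 difference was 0.19, beside 0.07 over all genes, and 32 of 34 estimates were positive. Prosbeta1 had 272 and 266 FPKM, Prosbeta2 267 and 257 FPKM and Prosbeta5 244 and 224 FPKM, all within the WT range. The count was 14 without WT7 (36.0% of all genes called), 7 without WT6 (27.9%), 2 without WT8 (22.7%) and 26 without WT6 and WT7 together (46.0%). Against the 6 WT libraries with 1 run, as RpS3* had, 1 member was called, beside 16.6% of all genes, with a median of 0.14. Between RpS3* and RpS3, 0 of 35 members differed past the threshold in limma (1 at an unadjusted p under 0.05), beside 0.598% of 8362 genes.

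In RpS15 discs most called members were core genes. Of 35 members tested, 5 were lower and 2 higher past the threshold, which is 20% beside 21.1% of 8134 genes (8.99% in the lower direction), so the share called was near that of all genes. One of the 2 higher calls was Rpt6R, a paralogue that passed the filter on low values only through RpS15, and the other was Rpn2. The 5 that fell all belonged to the core: the alpha genes Prosalpha1, its paralogue Prosalpha1R and Prosalpha7, and the beta genes Prosbeta1 and Prosbeta4. All 14 canonical core genes had a negative estimate (median −0.25), while 8 of 18 regulatory genes had a positive one (median −0.02). The median over all members tested was −0.12 and over all genes 0.03.

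Prosbeta1 had 164 and 172 FPKM in RpS15, both below the lowest WT library (log2 difference −0.41, SE 0.13, adjusted p = 0.062 in limma). Prosbeta2 had 207 and 215 FPKM (−0.16, SE 0.11) and Prosbeta5 173 and 189 FPKM (−0.24, SE 0.14), and neither passed. Of the catalytic subunits Prosbeta1 was the one called. Rpn2, which together with Rpn1 forms the scaffold of the base, had 143 and 137 FPKM in RpS15. Both values were above the highest WT library at 129 FPKM (log2 difference 0.29, SE 0.09, adjusted p = 0.056 in limma). Rpn1 had 133 and 127 FPKM (0.23, SE 0.11) and did not pass.

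The number of sequencing runs moved with this result. Against WT1 and WT2, counted as libraries of 2 runs like RpS15, the median over the members was 0.00. Whether the values of WT1 hold both runs is uncertain. The calls were 2 lower (Prosalpha1 and Prosalpha1R) and 4 higher (Rpn1, Rpn2, Rpt3R and Rpt6R) of 35, beside 24.4% of all genes. Rpt6R was tested only because of RpS15, so its call is no support for a difference. Prosbeta1 then had a log2 difference of −0.18 (adjusted p = 0.12 in limma). Without either RpS15 library 0 members passed, beside 3.12% and 3.1% of all genes, and the remaining library is assumed in that fit to vary like WT.

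In mahj discs all 34 members tested had a lower estimate than in WT, and 10 passed the threshold, which is 29.4% beside 16% of all 8145 genes tested in either direction and 6.7% in the lower direction. The median log2 difference was −0.30, beside −0.01 over all genes. The 10 lay in every sub-group: Prosalpha1 and Prosalpha1R in the alpha ring, Prosbeta1, Prosbeta2 and Prosbeta3 in the beta ring, the ATPase Rpt5, Rpn1 and Rpn10 of the base, and Rpn5 and Rpn9 of the lid. The mahj and WT libraries did not overlap in 27 of 34 members, all lower, where 10.5% of all genes tested did not overlap in this direction. The median was −0.32 over the core and −0.26 over the regulatory particle.

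Of the catalytic subunits, Prosbeta1 had 165 and 169 FPKM in mahj, below the lowest WT library at 191 FPKM (log2 difference −0.42, SE 0.13, adjusted p = 0.057 in limma). Prosbeta2 had 170 and 188 FPKM, below 205 FPKM in the lowest WT library (−0.39, SE 0.11, adjusted p = 0.04). Prosbeta5 had 165 and 178 FPKM, which reached the WT range by a margin of less than 1 FPKM, and did not pass (−0.32, SE 0.14, adjusted p = 0.19).

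In the regulatory particle the smallest adjusted p was that of Rpn5, a scaffold subunit of the lid, with 135 and 141 FPKM in mahj against 170 to 193 FPKM in WT (log2 difference −0.36, SE 0.08, adjusted p = 0.010 in limma). Rpt5 had 114 and 121 FPKM against 137 to 165 FPKM in WT (−0.37, SE 0.09, adjusted p = 0.018). Rpn2 stood outside the pattern, with 112 and 116 FPKM in mahj, inside the WT range of 106 to 129 FPKM (−0.01, SE 0.09, adjusted p = 0.97). Rpt5 and Rpn2 were chosen here after their values were seen.

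Members were also called lower in mahj against parts of the WT group, none of which carried FRT42D, hs-FLP or stauGFP. Against WT1 and WT2, counted as libraries of 2 runs, 13 of 34 members were lower and 0 higher past the threshold. The median was −0.17 (0.04 over all genes), but 32.1% of all genes were called in that fit. Against yw WT 11 were lower, beside 17.7% of all genes, and against FRT82, ubi-GFP WT 7, beside 12.6%. The libraries mahj1 and mahj2 differed in fat body genes, with sums of 1446 and 61.4 FPKM against 34.9 to 318 FPKM in WT. Without mahj1, which left 1 mahj library, 2 members were called (Prosalpha1 and Prosalpha1R), beside 3.5% of all genes, with a median of −0.25, and without mahj2 4 were called, beside 9.38%, with a median of −0.33.

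The largest change of any canonical member in the 6 comparisons with WT or RpS3 was that of Prosalpha1 in mahj, together with its paralogue Prosalpha1R. Prosalpha1 had 98.0 and 102 FPKM in mahj, against 178, 230 and 287 FPKM in the lowest, median and highest WT library (log2 difference −1.20, SE 0.14, adjusted p = 9.5e-05 in limma). The value in mahj was 0.430 times that of WT. Prosalpha1R had 97.7 and 101 FPKM in mahj against 186, 233 and 294 FPKM in WT (−1.24, SE 0.14, adjusted p = 6.1e-05). Every mahj library lay far below every WT library in both genes.

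Both genes were also lower in RpS15, at an intermediate level. Prosalpha1 had 164 and 162 FPKM (log2 difference −0.49, SE 0.14, adjusted p = 0.037 in limma) and Prosalpha1R 166 and 164 FPKM (−0.51, SE 0.14, adjusted p = 0.029). The RpS15 values were below every WT library and above both mahj libraries. Between mahj and RpS15 the difference was −0.71 (SE 0.15, adjusted p = 0.0051) in Prosalpha1 and −0.72 (SE 0.15, adjusted p = 0.0036) in Prosalpha1R. In RpS3 the level of Prosalpha1 was 286 and 276 FPKM, in RpS3* 297 and 279 FPKM and in RpS3+puc 345, 301 and 325 FPKM.

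The other 6 alpha genes had smaller estimates in mahj, from −0.35 to −0.23 on the log2 scale, and 0 of them passed. The ratio of Prosalpha1 to the median of the other 6 alpha genes was 0.758 to 1.01 in WT, 0.785 and 0.775 in RpS15, and 0.509 and 0.483 in mahj. In RpS3, RpS3* and RpS3+puc it was 0.959 to 1.07. In mahj the ratio was below that of all other libraries, while in RpS15 it lay within the WT range because of WT4, the WT library with the lowest ratio.

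The values of Prosalpha1 and Prosalpha1R are not independent. Both genes lie on arm 2R in the same orientation in the BDGP6.54 annotation, with CG18853 between them, and their FPKM had a ratio of 0.996 to 1.05 in all 19 libraries. How reads that fit both copies were assigned is not given in the sources used here, so the level of each is uncertain. They are best read as 1 observation, although the counts and shares of members given here hold them as 2. The gene before Prosalpha1, phr, a photolyase that repairs DNA, was at 55.5 ± 11.3 FPKM in WT (SD, n = 8) and lower in RpS15 (log2 difference −1.34, SE 0.20, adjusted p = 0.0013 in limma) and in mahj (−1.74, SE 0.20, adjusted p = 9.3e-05). CG18853 itself was lower in mahj (−0.96, SE 0.13, adjusted p = 0.00026) and not in RpS15 (0.05, SE 0.12, adjusted p = 0.82).

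The next genes outward did not pass in mahj: CG30383 beyond phr had a log2 difference of 0.34 (SE 0.22, adjusted p = 0.4 in limma) and CG12822 beyond Prosalpha1R one of 0.14 (SE 0.14, adjusted p = 0.59). Further out, Atg10, an autophagy gene next to CG12822, was lower in mahj (−1.19, SE 0.15, adjusted p = 0.00018), and puml, beyond CG30383 and cathD on the side of phr, was higher (1.09, SE 0.13, adjusted p = 0.00011). The gene puml was also higher in RpS3 (1.08, SE 0.12, adjusted p = 0.00013), RpS3* (1.19, SE 0.12, adjusted p = 2.0e-05) and RpS3+puc (1.09, SE 0.10, adjusted p = 2.7e-06), whose labels carry no FRT42D. In RpS15 cathD was lower (−0.45, SE 0.135, adjusted p = 0.047 in limma), while in mahj it was not called (0.04, SE 0.13, adjusted p = 0.89). Of the 14 genes tested from sax to Cul1, 6 were called in mahj: puml as higher, and phr, Prosalpha1, CG18853, Prosalpha1R and Atg10 as lower. Over all genes tested, 16% were called in mahj, and 6.7% as lower. Prosalpha1 and Prosalpha1R enter this count as 2, and the stretch was laid around Prosalpha1 because of its change. These neighbours were looked up after the values of Prosalpha1 were seen. Short stretches of phr and CG18853 overlap Prosalpha1 and Prosalpha1R on the other strand, 1.8% of the exonic bases of each, and strand was not stated for the counting. In the labels FRT42D stands on both copies of this arm in mahj and on 1 copy in RpS15, and it is absent from the other groups. For the genes that were lower in mahj, an effect of the chromosome that carries FRT42D and an effect of the mutations cannot be told apart.

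**Figure D3:**
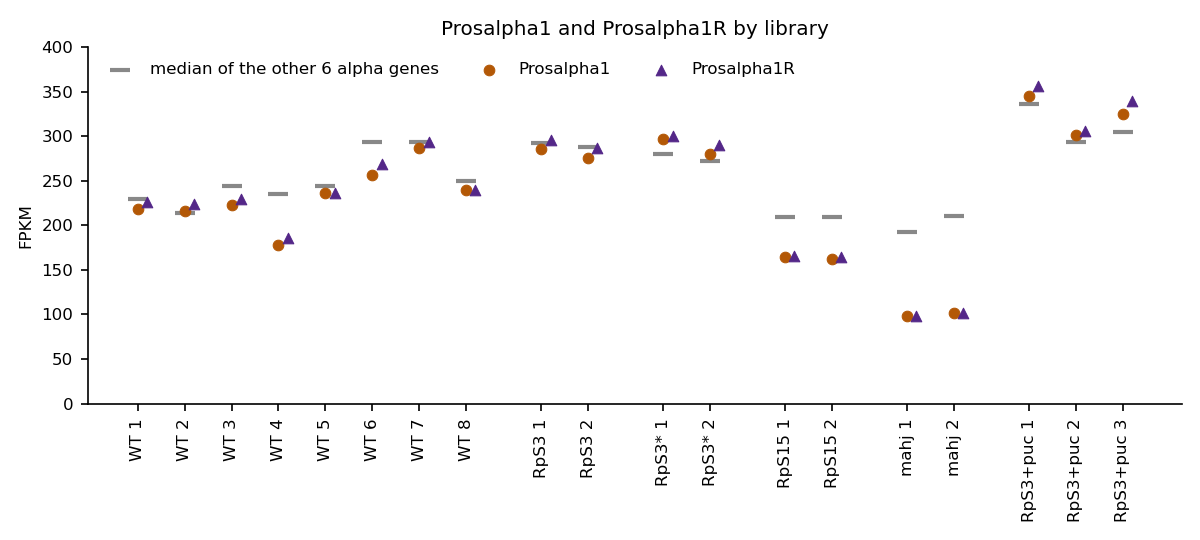
FPKM (y axis) of Prosalpha1 (circles), Prosalpha1R (triangles) and the median of the other 6 alpha genes (bars) in each of the 19 libraries (x axis). Prosalpha1 is at 98.0 and 102 FPKM in mahj and 164 and 162 FPKM in RpS15, under the bars at 193 and 210 FPKM and at 210 and 210 FPKM, whereas in RpS3+puc it is at 301 FPKM or more, above them.

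Upon puc expression in RpS3 discs, 14 of 34 members were higher and 2 lower than in RpS3 alone, which is 47.1% beside 46.6% of the 7883 genes tested. In the higher direction the shares were 41.2% of the members and 21.5% of all genes. The median log2 difference was 0.12 over the members and −0.02 over all genes. Higher members came from both particles: Prosalpha1, Prosalpha2, Prosalpha6, Prosbeta1, Prosbeta2, Prosbeta3 and Prosbeta6 of the core, the ATPases Rpt1 and Rpt4, Rpn7, Rpn11 and Rpn12 of the lid, and the paralogues Prosalpha1R and Rpt3R.

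Rpt1 had the smallest adjusted p. It was at 189, 171 and 192 FPKM in RpS3+puc against 139 and 136 FPKM in RpS3 (log2 difference 0.41, SE 0.08, adjusted p = 0.0055 in limma), and RpS3 was the group in which Rpt1 had been low. Rpn7, a scaffold subunit of the lid, had 166, 159 and 169 FPKM against 133 and 136 FPKM (0.29, SE 0.07, adjusted p = 0.013). Prosalpha2 had 447, 382 and 407 FPKM against 335 and 319 FPKM (0.33, SE 0.08, adjusted p = 0.018), and 447 FPKM was the highest value of any member in any library.

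The 2 members that fell were Rpn2 and Rpn6. Rpn2 had 95.8, 107 and 113 FPKM in RpS3+puc against 132 and 129 FPKM in RpS3 (log2 difference −0.31, SE 0.08, adjusted p = 0.022 in limma). Rpn6, a lid subunit that clamps lid and core together, had 160, 155 and 168 FPKM against 181 and 181 FPKM (−0.17, SE 0.07, adjusted p = 0.089), and the call was lost in 9 of 13 alternatives. Of the catalytic subunits, Prosbeta2 had 349, 300 and 330 FPKM in RpS3+puc (0.32, SE 0.08, adjusted p = 0.018) and Prosbeta1 had 340, 296 and 305 FPKM (0.20, SE 0.08, adjusted p = 0.083). Prosbeta5 had 271, 240 and 263 FPKM, which overlapped RpS3 (0.02, SE 0.08, adjusted p = 0.89).

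These counts rested on both RpS3 libraries. Without RpS3 library 1, 2 members were called, beside 22.7% of all genes, and without library 2 there was 1, beside 15.8%. Without RpS3+puc library 3, 9 were called, beside 40.8%.

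Against WT, RpS3+puc discs had 25 of 34 members higher and 0 lower, or 73.5% in either direction beside 62.3% of the 8094 genes tested, and 37.4% in the higher direction. Both WT and RpS3 share libraries with the comparisons above. Against the 6 WT libraries with 1 run, as RpS3+puc had, 21 were higher and 0 lower, beside 58.4% of all genes, with a median of 0.29. The median log2 difference was 0.33, beside 0.08 over all genes. Of the core genes 13 of 14 were called, with a median of 0.43, and of the regulatory genes 10 of 18, with a median of 0.21. Prosalpha2 in RpS3+puc was above all WT libraries, which had 252, 273 and 355 FPKM as lowest, median and highest (log2 difference 0.57, SE 0.10, adjusted p = 0.00069 in limma). Prosbeta2 (0.47, SE 0.09, adjusted p = 0.0014) and Prosbeta3 (0.46, SE 0.10, adjusted p = 0.0017) did not overlap WT either. In the lid, the deubiquitinase Rpn11 had 268, 236 and 253 FPKM against 155 to 229 FPKM in WT (0.49, SE 0.11, adjusted p = 0.003).

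**Figure D4:**
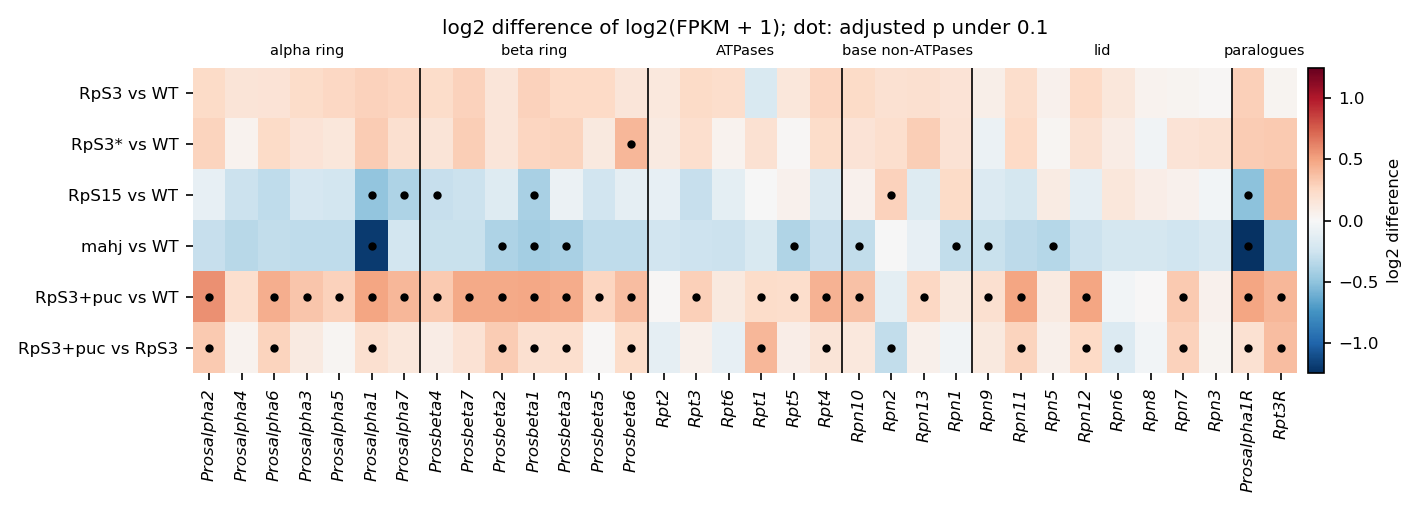
log2 difference on the log2(FPKM + 1) scale (colour, blue lower and red higher) of the 32 canonical genes and of the paralogues Prosalpha1R and Rpt3R (columns) in 6 comparisons (rows), with a dot where adjusted p in limma was under 0.1. The mahj row is negative throughout with 10 dots, the row of RpS3+puc against WT holds 25 dots, all higher, and the RpS3 row holds 0; Rpt6R is not drawn.

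The differences between mutants were tested directly, in 1 fit of WT and the 4 mutants. RpS15 was lower than RpS3 in 21 of 35 members and higher in 1, which is 62.9% beside 46% of 8362 genes (27.9% in the lower direction), with a median of −0.35 (−0.06 over all genes). The higher call here and in the next contrast was Rpt6R, which entered the fit through RpS15 alone. RpS15 was lower than RpS3* in 19 and higher in 1, or 57.1% beside 49.2% (27.9% lower), with a median of −0.31. In Prosbeta1 the difference of RpS15 was −0.69 (SE 0.14, adjusted p = 0.0032 in limma) to RpS3 and −0.67 (SE 0.14, adjusted p = 0.0031) to RpS3*. In Prosalpha1 it was −0.78 (SE 0.15, adjusted p = 0.0023) and −0.81 (SE 0.15, adjusted p = 0.0014). Without either RpS15 library 10 members were called in each contrast, beside 25.7% to 34.9% of all genes. Without RpS3 library 1 or 2 there were 9 and 14 (25.0% and 29.4% of all genes), and without RpS3* library 1 or 2 there were 10 and 13 (36.1% and 27.8%). RpS15 had 2 runs and the RpS3 alleles 1.

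Most members were called between mahj and the RpS3 alleles. In mahj 27 of 35 members were lower than in RpS3 and 0 higher, which is 77.1% beside 15.2% of all genes (10.8% lower), with a median of −0.50 (−0.08 over all genes). Against RpS3* 30 were lower and 0 higher, or 85.7% beside 19.8% (13.7% lower), with a median of −0.46. Prosbeta3, a beta subunit, had 157 and 175 FPKM in mahj against 260 and 264 FPKM in RpS3 (log2 difference −0.66, SE 0.12, adjusted p = 0.0041 in limma). Prosbeta6 had 174 and 170 FPKM in mahj against 282 and 290 FPKM in RpS3* (−0.73, SE 0.13, adjusted p = 0.0022). The counts fell where a library was left out: to 6 without mahj1 and 17 without mahj2 against RpS3, to 7 and 10 without RpS3 library 1 and 2, and against RpS3* to 6 and 15 without mahj1 and mahj2 and to 7 and 11 without RpS3* library 1 and 2. In these fits 3.47% to 6.84% of all genes were called. The RpS3 alleles had 1 run and mahj 2, so these contrasts also differ in sequencing runs.

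Between mahj and RpS15, which had 2 runs each, 13 of 35 members were lower in mahj and 0 higher, or 37.1% beside 26.8% of all genes (14.2% lower), with a median of −0.16 (−0.03 over all genes). Rpt6R was among the 13, although it entered the fit through RpS15 alone. Rpn5 had 135 and 141 FPKM in mahj and 186 and 195 FPKM in RpS15 (log2 difference −0.46, SE 0.09, adjusted p = 0.0019 in limma). In Prosbeta1 the mahj and RpS15 values overlapped (−0.01, SE 0.14, adjusted p = 0.96). The count was 8 and 6 without RpS15 library 1 and 2, and 7 without mahj1, beside 15.0%, 12.8% and 9.37% of all genes.

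Transcript length moved with these differences. All 14 core genes have a longest annotated transcript under 1300 nt, whereas 16 of the 18 regulatory genes have a longer one, with Rpn11 and Rpn12 as the exceptions. Among all genes of 50 to 500 FPKM, those with transcripts under 1300 nt had a median log2 difference of −0.22 in RpS15, and those of 1300 to 3500 nt one of 0.03. For the members these medians were −0.24 and 0.02. In RpS3+puc against WT the medians were 0.48 and 0.12 over all such genes and 0.46 and 0.16 over the members.

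In mahj the members lay below that background at both lengths. Their medians were −0.32 for short and −0.25 for long transcripts, against −0.12 and −0.05 over all genes of 50 to 500 FPKM. In RpS3 the members had 0.24 and 0.14 against 0.25 and 0.11, and in RpS3* 0.22 and 0.17 against 0.26 and 0.10. Across the 32 canonical genes, which share all libraries, Spearman's rho between length and log2 difference was −0.74 in RpS3+puc against WT, 0.63 in RpS15, 0.47 in mahj and −0.60 in RpS3.

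With the trend along transcript length removed in every library, a choice made after seeing the data, the comparisons shifted. Of all genes, 14.5% were then called in RpS15, 17.7% in mahj, 41.3% in RpS3+puc against RpS3 and 47.2% against WT. In RpS15 3 of the 7 calls were kept (Prosalpha1 and Prosalpha1R lower, Rpt6R higher), Rpt3R was added as higher, and the median was −0.01. Prosalpha1 and Prosalpha1R are best read as 1 observation. Rpt6R was tested only because of RpS15, so its call is no support for a difference. In mahj 17 members were lower and 0 higher, among them all 10 called before, with a median of −0.26. In RpS3+puc against RpS3 the split became 6 higher and 8 lower, with a median of 0.01, and against WT it became 12 higher and 1 lower, with a median of 0.12 beside 0.11 over all genes. The gap between core and regulatory medians in RpS15 went from −0.23 to −0.15, and in RpS3+puc against WT from 0.22 to 0.03.

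**Figure D5:**
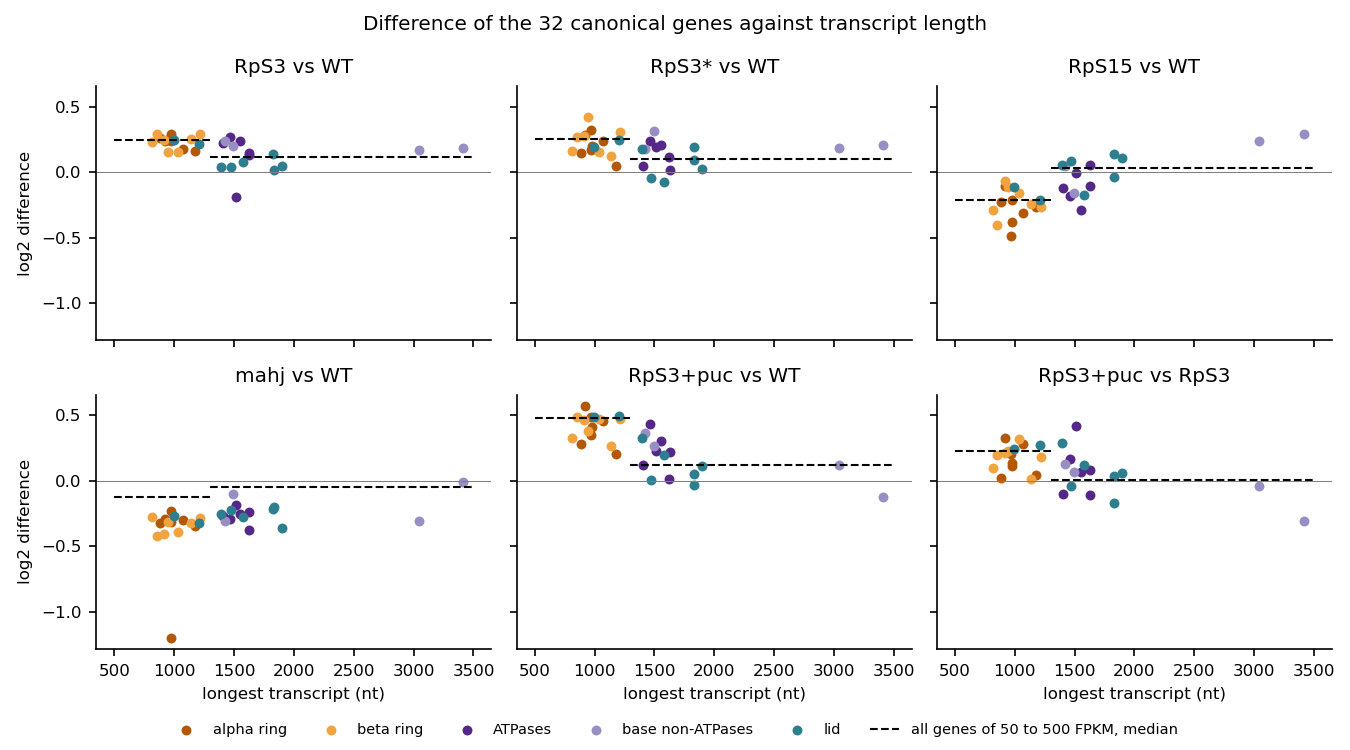
log2 difference (y axis) of the 32 canonical genes against the length of their longest transcript in nt (x axis) in 6 comparisons, coloured by sub-group; dashed lines are medians over all genes of 50 to 500 FPKM with transcripts under 1300 nt and of 1300 to 3500 nt. In mahj nearly all points are below both lines (−0.12 and −0.05), and Prosalpha1 is the point at −1.20; in RpS15 and in RpS3+puc against WT the points scatter around the lines.

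Of the 16 paralogues, 13 stayed below 1 FPKM in every library, so almost all proteasome FPKM was listed under the canonical genes and Prosalpha1R. How far Prosalpha1R itself was expressed is uncertain, because the assignment of reads shared with Prosalpha1 is not known. Prosbeta5R1 was listed at 0 in all 19 libraries. Besides Prosalpha1R, only Rpt3R, a copy of the ATPase gene Rpt3, was listed at 1 FPKM or more in every library. Its values were 2.10, 2.67 and 4.35 FPKM in the lowest, median and highest WT library. It had 4.48, 3.97 and 3.74 FPKM in RpS3+puc against 2.93 and 2.81 FPKM in RpS3 (log2 difference 0.38, SE 0.12, adjusted p = 0.041 in limma). In mahj it was at 2.04 and 1.69 FPKM, below all WT libraries (−0.40, SE 0.19, adjusted p = 0.21).

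Rpt6R, a copy of the ATPase gene Rpt6, reached 1 FPKM in RpS15 only, and was tested there only because of that group. It had 1.13 and 1.51 FPKM in RpS15 and at most 0.387 FPKM in each of the other 17 libraries, 0 in 1 of them. Since it passed the filter on low values through the group in which it is high, its call is no support for a difference, and no p is given. Prosalpha4T2 showed 0.366 and 0.266 FPKM in RpS15 and at most 0.144 FPKM elsewhere. Prosbeta4R1 had 0.148 to 0.690 FPKM in all RpS3, RpS3* and RpS3+puc libraries, at most 0.199 FPKM in WT, and was listed at 0 in RpS15 and mahj. Both were below the filter on low values and were picked after their values were seen. In the fit with no filter Prosalpha4T2 was called higher in RpS15 than in WT, and Prosbeta4R1 higher in RpS3* and in RpS3+puc than in WT and in RpS3* than in RpS3. Since both genes were picked for these same low values, these calls are no support for a difference either. The list of 9 testis genes summed in RpS15 to 9.63 and 12.7 FPKM, against 10.4 to 15.8 FPKM in WT; of this sum mia was 8.93 and 11.3 FPKM.

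Of 20 listed genes that work with the proteasome, 18 were matched and tested. Ecm29 and TER94, the gene of the p97 segregase itself, were not matched. The assembly chaperone Pomp, which matures the core particle, was lower in mahj, with 85.0 and 94.5 FPKM against 105 to 132 FPKM in WT (log2 difference −0.43, SE 0.10, adjusted p = 0.013 in limma). In RpS3+puc Pomp was higher, with 203, 165 and 171 FPKM (0.56, SE 0.09, adjusted p = 0.00035 to WT). The deubiquitinases Usp14 (−0.27, SE 0.08, adjusted p = 0.062) and Uch-L5 (−0.26, SE 0.08, adjusted p = 0.058), which dock on the regulatory particle, were lower in mahj. REG, the subunit of another activator of the core, was higher than in WT in RpS3 (0.43, SE 0.10, adjusted p = 0.015), RpS3* (0.40, SE 0.10, adjusted p = 0.016) and RpS3+puc (0.39, SE 0.08, adjusted p = 0.0017).

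Among 9 partners and regulators tested, the calls against WT were 2 higher in RpS3, 1 higher in RpS3*, 0 in RpS15, 3 lower in mahj, and 3 higher and 2 lower in RpS3+puc. Over all genes tested, 18.6% were called in RpS3, 22.8% in RpS3*, 21.1% in RpS15, 16% in mahj and 62.3% in RpS3+puc. Of 6 genes of ubiquitin supply and of cofactors of p97, 1 was higher in RpS3, 1 in RpS15 and 1 in mahj. In RpS3+puc 2 of them were higher and 2 lower. The gene of p97 itself was not tested. The polyubiquitin gene Ubi-p5E was the one that was higher in mahj (log2 difference 0.53, SE 0.13, adjusted p = 0.023 in limma), at 312 FPKM against 218 FPKM in WT. Ubi-p5E was also higher in RpS3+puc, at 332 FPKM (0.61, SE 0.11, adjusted p = 0.00088 to WT). It was not called in RpS15 (0.345, SE 0.133), RpS3 (−0.05, SE 0.14) or RpS3* (0.06, SE 0.14). Between FRT82, ubi-GFP and yw WT its difference was 0.354 (SE 0.106), which did not pass. In the transcription factor arm, cnc and Keap1, its cytoplasmic inhibitor, were not called in RpS3, RpS3*, RpS15 or mahj. Both were lower in RpS3+puc than in WT (cnc −0.34, SE 0.14, adjusted p = 0.059; Keap1 −0.19, SE 0.08, adjusted p = 0.071). The small Maf protein gene maf-S, which encodes the partner of the cnc product on DNA, was lower in mahj (−0.36, SE 0.11, adjusted p = 0.058) and higher in RpS3+puc (0.45, SE 0.10, adjusted p = 0.0032).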

How the data were processed

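Total RNA of 50 wing discs per sample had been made into TruSeq libraries. The submitters' processing notes name BWA 0.6.2 and the genome dm3. The authors deposited FPKM per gene, normalised for transcript length and depth, in 19 files for the 25 samples of the labels. Of these, 6 files are named for 2 sequencing runs of a library. The column of WT1 is headed as run 1 although its file is named for both. How reads shared by gene copies were assigned, and strand, are not given in the sources used here. Whole reads were recovered from 97.3% to 97.8% of low values (0.5 to 50 reads, tolerance 0.02).

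Differences were tested on log2(FPKM + 1) with limma 3.58.1 (R 4.3.3, moderated variance with trend and robust settings), among genes with at least 1 FPKM in 2 compared libraries, and p-values were adjusted over all genes tested (Benjamini-Hochberg) with a threshold of 0.1. Fold changes on this scale understate changes of low genes. Pair comparisons used the compared libraries alone; differences between mutants came from 1 fit of WT and 4 mutants. The labels do not say that libraries came from separate crosses, so p-values measure the spread between these samples. The test was checked on simulated data. Symbols, strand, gene order and transcript lengths were taken from the BDGP6.54 annotation, and no coordinates were converted.

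Genes named by rule were the catalytic subunits, the 3 members with the smallest adjusted p in each direction of a comparison, the highest and lowest WT means per sub-group, and paralogues at 1 FPKM in 2 libraries. Of the called genes of the pathway lists only some were described. PI31, Uba1, p47, rngo, Ubqn and Ubi-p63E, for example, were called against WT in at least 1 group and were not described. Other genes were named after their values were seen. Members and lists were chosen with earlier results of these data known. A planned motif search was not run.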

Additional observations from a re-analysis of the deposited data

Results flagged for a closer look

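Of 38 values screened, 5 members had a WT library whose gap to the nearest other WT library exceeded Dixon's 95% critical value for 8 samples; chance flags about 1 in 20 groups. Prosalpha2 was at 354.7 FPKM in WT7, the highest value, with a gap of 0.687 of the range. Rpn8, the partner of the lid deubiquitinase, was at 185.0 FPKM in WT6, with a gap of 0.699 of the range. Rpn6 was at 146.1 FPKM in WT6, the lowest value (0.566 of the range), and Rpn5 at 193.4 FPKM in WT1, the highest (0.537). The paralogue Rpt3R was at 4.345 FPKM in WT7, the highest (0.535). WT6 and WT7 are also the libraries with the highest core medians, and the reason was not tested.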

How the results depend on the processing

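Of 779 values of single named genes under the alternatives, 746 kept their direction and their side of the threshold, 33 kept their direction only and 0 reversed. These genes were named for the smallest adjusted p in the same data, and many alternatives only left out a library. Most values were therefore likely to be kept, and the count is no independent support for the calls. It includes Rpt6R, whose call is no support for a difference. Prosalpha1 and Prosalpha1R are counted separately in it, although their values are not independent. Removal of the trend along transcript length and leaving out WT6 and WT7 together were chosen after seeing the data; the causes of the shifts below were not tested.

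Members called, with all 19 libraries in one fit, were 10 in RpS3, 9 in RpS3*, 14 in RpS15, 27 in mahj, 5 in RpS3+puc against RpS3 and 1 between WT runs (Rpt3), where 29.6%, 33.3%, 32.5%, 22.9% and 30.9% of all genes were called in the first 5. At an adjusted p under 0.05 they were 3 in RpS15, 6 in mahj and 9 in RpS3+puc against RpS3. With no filter on low values they were 2 in RpS3*, 10 in RpS3+puc against RpS3 and 1 between RpS3* and RpS3, and the medians of RpS15 against RpS3 and RpS3* were −0.20 and −0.20. With FPKM rescaled by the median of ratios, 1 member was called in RpS3 (lower) and 1 between RpS3* and RpS3, the median in RpS3 was 0.10 and that of mahj against RpS3 −0.39. With yw WT only, 3 were called in RpS3*. With FRT82, ubi-GFP WT only, 0 were called in RpS3*, 16 in RpS3+puc against WT and 1 between RpS3* and RpS3. Against WT with as many runs, the median was 0.00 (−0.003) in RpS15 and −0.17 in mahj. Apart from the fit of all 19 libraries, the counts of this paragraph stand without the share of all genes called.

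With the length trend removed, the counts were 2 in RpS3 (1 higher, 1 lower), 2 in RpS3*, 4 in RpS15, 17 in mahj, 13 in RpS3+puc against WT, 10 for RpS15 against RpS3 and 11 against RpS3*. Its medians were −0.014 in RpS15, 0.012 in RpS3+puc against RpS3, 0.12 against WT, −0.13 and −0.076 for RpS15 against RpS3 and RpS3*, and −0.39 and −0.34 for mahj against them. For RpS3, RpS3* and the contrasts of RpS15 with both, the share of all genes called under this setting is not given. Without WT6 and WT7 the counts were 23 in RpS3, 26 in RpS3*, 18 in mahj and 2 between RpS3* and RpS3, beside 43.5%, 46.0%, 23.6% and 1.23% of all genes.

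Same-numbered libraries correlated best with their own number in 2 of 13 checks, so the numbers were not taken as pairs. With the replicate block, 25 members were called in RpS3 (median 0.32), 28 in RpS3* (0.36) and 2 between RpS3* and RpS3, beside 51.6%, 47.8% and 2.4% of all genes, and the medians were 0.00 (−0.003) in RpS15, −0.17 in mahj and 0.44 in RpS3+puc against WT. The block leaves only WT libraries that share a number with the mutant to inform the difference.

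With 1 library left out at a time, the counts ranged from 0 to 11 in RpS3, 0 to 14 in RpS3*, 0 to 9 in RpS15, 2 to 12 in mahj and 1 to 15 in RpS3+puc against RpS3. They ranged from 9 to 26 for RpS15 against RpS3, 10 to 22 against RpS3*, 6 to 30 for mahj against RpS3, 6 to 31 against RpS3* and 6 to 13 against RpS15. The median between the WT strains ranged from −0.029 (without WT6) to 0.17. Where 1 library of a group was left, it is assumed to vary like the other groups. The share of all genes called also moved between the leave-out fits, so the ranges of counts cannot be read alone. Depth limits the paralogues below 1 FPKM.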
